A study of Mus musculus with 2 samples.

Results

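The 7 genes described here encode the urea cycle and the enzymes that feed ammonia into it: Cps1, Otc, Ass1, Asl, Arg1, Nags and Gls2. They were picked by symbol from the deposited table of transcript levels, which lists 24054 genes, and all 7 were found. The question was how their transcripts differed between the livers of Pgrmc1 knockout (KO) mice and wild-type (WT) mice. The KO mice (Pgrmc1 -/Y) carried an X-linked allele from which Cre, expressed under Sox2 control, had removed exons 1 and 2 in the whole body, so the deletion was not limited to hepatocytes. All mice were males of 8 to 12 weeks, and the labels give both groups as C57BL/6. By the study's methods the floxed line was C57BL/6N and the Cre line B6.Cg-Tg(Sox2-cre)1Amc/J. RNA of 5 livers per genotype, 2.5 μg from each, was combined before library preparation, which left 1 total RNA library for each genotype. No spread between mice was therefore measured, no p-value is given, and no difference below has a replicate check.

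The urea cycle turns toxic ammonia into urea and runs mainly in hepatocytes around the portal vein. Carbamoyl phosphate synthetase (Cps1) and ornithine transcarbamylase (Otc) work in mitochondria, and argininosuccinate synthetase (Ass1), argininosuccinate lyase (Asl) and arginase (Arg1) work in the cytosol. N-acetylglutamate synthase (Nags) makes the obligate activator of Cps1, and the liver glutaminase Gls2 frees ammonia from glutamine. Ammonia that escapes the periportal cells is captured by glutamine synthetase (Glul) in the few hepatocytes around the central vein.

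Levels are TPM, each gene's share of the transcript pool after scaling, a scale that corrects for transcript length and so lets genes be compared. Changes are log2((KO TPM + 1)/(WT TPM + 1)), which slightly understates low genes. Each is followed by a 95% interval of the log2 ratio of the authors' size-factor-scaled means, which was computed from estimated reads. Those intervals cover counting error only and say nothing of differences between mice. The tables held an estimated 22086688 reads on genes in KO and 29710410 in WT, and the 7 genes took 0.901% and 0.995% of them. Pgrmc1 itself stood at 0.68 TPM in KO against 949.49 TPM in WT, the order that the labels give. The hepatocyte markers were abundant in both libraries: albumin stood at 47242 TPM in KO against 49729 TPM in WT.

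Of the 7 transcripts, 6 were lower in the KO library and 1, Nags, was slightly higher. Ass1 stood furthest from WT, at 459.74 TPM against 637.35 TPM, a level 27.9% lower. The other 5 lower transcripts were 4.41% to 11.2% below WT. None was past the fold rule used here, with limits of 1.4 for a rise and 0.6 for a fall: 0 of 7 were higher and 0 of 7 lower by it. The limits are those of the study's lists of changed transcripts, but they were set here on TPM + 1, for genes whose mean reached 1 TPM, and without the study's added criterion on the probability of a difference. Among the 11623 genes tested, the shares were 1.21% and 0.301%. At the symmetric fall limit of 1/1.4 it was again 0 of 7, beside 1.02% of genes. With the fall limit eased to a fold of 1.2, 1 of 7, Ass1, was lower, beside 5.51% of genes. The median change of the 7 was -0.13, beside -0.01 for those 11623 genes, of which 53.8% were below 0.

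Before the values of Ass1 are read, a feature of its sequence has to be known. Ass1 spans chr2:31470270-31520670 on GRCm38 (the mm10 assembly), on the plus strand, and has 16 exons. A processed pseudogene, Gm5424, is an intronless copy of it at chr10:62071022-62072571. All 1236 coding bases of Ass1 aligned to the copy, with 6 differences, an identity of 99.5%, and the longest stretch of the coding sequence without a difference was 398 bases. The 100 bases shown here, bases 532 to 631 of the Ass1 transcript and bases 330 to 429 of the Gm5424 transcript in GENCODE, show how few positions tell the genes apart. They were picked because no coding stretch of this length holds more differences. Capitals mark the only 2 positions at which they differ.
Ass1: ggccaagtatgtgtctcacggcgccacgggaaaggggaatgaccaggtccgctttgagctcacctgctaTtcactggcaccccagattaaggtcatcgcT
Gm5424: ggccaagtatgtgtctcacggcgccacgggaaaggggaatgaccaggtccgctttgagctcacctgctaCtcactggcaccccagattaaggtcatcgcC

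RSEM, the program the authors used, splits reads with more than 1 matching gene among those genes. A read pair that covers no differing position could thus be given to either gene. The table lists more for the copy than for the parent gene. Gm5424 stood at 1949.2 TPM in KO against 2271.3 TPM in WT, which is 4.24 and 3.56 times the level listed for Ass1. Among the 1597 windows of 100 bases in the GENCODE transcript of Ass1, 38.9% occur unchanged in that of Gm5424. How far the Gm5424 entry used by the authors reaches beyond the coding bases is not known, so the overlap in these data may differ. Hence the level of Ass1 alone is uncertain, and its values are given both as listed and summed with the copy.

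Cps1, the enzyme at the entry of the cycle, was the most abundant of the 7 as listed. It stood at 1880.25 TPM in KO against 2059.73 TPM in WT, the rank 63 and 58 of all genes by level. The change was -0.13, and the KO level in TPM was 8.71% lower. The log2 ratio of the authors' means was -0.12 (95% interval -0.13 to -0.11), from 143004 and 209972 estimated reads. The 2 scales thus differed by more than the half-width of this interval. This long gene (chr1:67122426-67231267, 38 exons) supplied most of the reads of the 7 genes.

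Otc, which joins carbamoyl phosphate to ornithine, differed least among the enzymes of the cycle. Its level was 302.31 TPM in KO against 316.25 TPM in WT, a change of -0.06 (-0.09 to -0.01). The upper bound lay close to 0, and Otc, like Pgrmc1, is on the X chromosome (chrX:10252230-10321024).

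Ass1, which condenses citrulline with aspartate, had a change of -0.47 as listed (-0.48 to -0.41), from 9476 and 17386 estimated reads. That is a fold of 0.722, and by change Ass1 was number 134 from the lowest of the 11623 genes. Among the 6235 genes above 10 TPM, it was number 50. Summed with Gm5424, the level was 2408.94 TPM in KO against 2908.65 TPM in WT, and the change was -0.27 (-0.27 to -0.24), number 582 from the lowest. The copy alone had a change of -0.22 (-0.23 to -0.19). Ass1 took 19.1% of the summed level in KO and 21.9% in WT. The lower level in KO was thus present with either way of counting, but its size depended on how reads were shared. Whether the larger change listed for Ass1 lies in the transcript or in the sharing of reads was not tested.

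Asl, which splits argininosuccinate into arginine and fumarate, stood at 354.86 TPM in KO against 378.76 TPM in WT. The change was -0.09 (-0.12 to -0.03). Arg1, which releases urea and returns ornithine to the cycle, stood at 1319.3 TPM in KO against 1486.16 TPM in WT, with a change of -0.17 (-0.18 to -0.13). Neither gene shares an unchanged 100-base window with another gene in GENCODE, unlike Ass1. The search counted exact matches only, so it cannot show that no reads were shared.

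Nags was the exception in direction and the least abundant of the 7. It stood at 47.05 TPM in KO against 45.98 TPM in WT, and its interval, -0.06 to 0.15 around a change of 0.03, held 0. At 1289 and 1685 estimated reads a difference of this size was not detectable. Part of Nags (11.4% of its windows) is also covered by Gm11586, a gene on the opposite strand that has no row in the table. Gls2, the entry of glutamine nitrogen, stood at 162.51 TPM in KO against 182.68 TPM in WT, a change of -0.17 (-0.21 to -0.10). It overlaps Spryd4 on the opposite strand, which was far lower, at 23.25 TPM in KO against 22.73 TPM in WT.

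**Figure D1:**
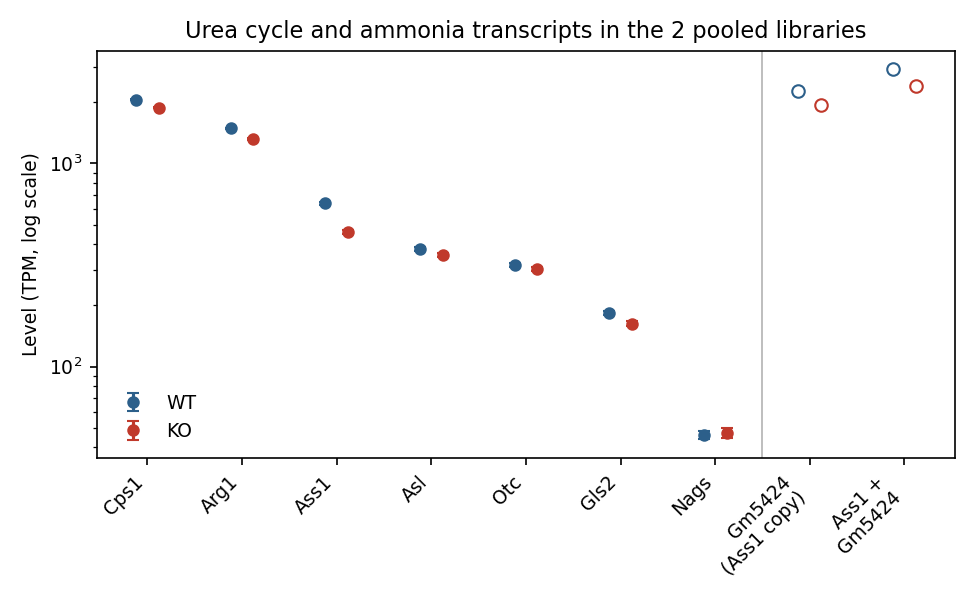
Level of each transcript in TPM (log axis) in the WT (blue) and KO (red) library, ordered by the WT level, with 95% counting intervals on the filled points. Open points show Gm5424, the near-identical copy of Ass1, and the sum of both; the KO point is the lower of each pair except at Nags.

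By level the order of the transcripts as listed was the same in both libraries: Cps1, Arg1, Ass1, Asl, Otc, Gls2 and Nags. The counting intervals of neighbours in this order did not overlap in either library. With the copy added, Ass1 came before Cps1, at 1.28 times the Cps1 level in KO and 1.41 times in WT. The balance between steps therefore depends on the same doubt. Cps1 stood at 4.09 times Ass1 in KO and 3.23 times in WT, and Ass1 at 1.30 and 1.68 times Asl. Summed over the 7 genes the level was 4526.02 TPM in KO against 5106.91 TPM in WT, a ratio of 0.886. With Gm5424 included, the sums were 6475.22 TPM and 7378.21 TPM, a ratio of 0.878.

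The counting intervals were wholly below 0 for 6 of 7 genes, against 13.4% of all genes with an interval and 24.1% of those above 100 TPM (of which 50.1% had a change below 0). Intervals narrow with depth, and 6 of the 7 genes are above 100 TPM, so the latter share is the closer background. An interval off 0 says that the 2 libraries differed by more than counting error, not that the genotypes did. Ass1 as listed had the lowest change of the 7, so its change minus that of each other member was bound to be negative. These differences ran from -0.29 (against Gls2 and Arg1) to -0.49 (against Nags). Summed with the copy, Ass1 was still the lowest, and the differences ran from -0.10 to -0.31. The counting interval of each was below 0, but it allows neither for this choice nor for how reads were shared.

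**Figure D2:**
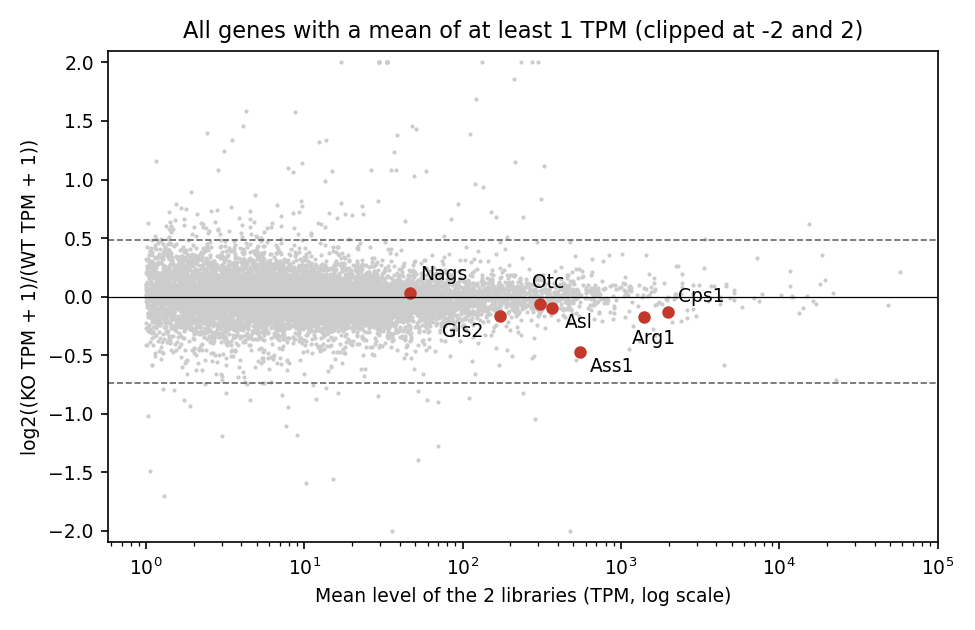
Change between KO and WT (log2 of TPM + 1) against mean level (TPM, log axis) for the 11623 genes that reached a mean of 1 TPM, with the urea cycle and ammonia genes in red and the fold limits of 1.4 and 0.6 dashed. Grey points beyond -2 or 2 are drawn at the edge; the red points lie between the dashed lines, Ass1 lowest at -0.47.

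Start site sequences were at hand for 3 of the 7 genes in the RefSeq promoter table (GRCm38.p6), each from 250 bases before to 50 after the start. They are shown for Ass1 and Otc, the members among these whose counting interval lay off 0 and which differ most and least of the 6 lower transcripts. Capitals mark matches to CACGTG and GGGCGG in Ass1 (chr2:31470020-31470319) and to AGNTCA in Otc (chrX:10252055-10252354), searched on both strands.
Ass1 promoter: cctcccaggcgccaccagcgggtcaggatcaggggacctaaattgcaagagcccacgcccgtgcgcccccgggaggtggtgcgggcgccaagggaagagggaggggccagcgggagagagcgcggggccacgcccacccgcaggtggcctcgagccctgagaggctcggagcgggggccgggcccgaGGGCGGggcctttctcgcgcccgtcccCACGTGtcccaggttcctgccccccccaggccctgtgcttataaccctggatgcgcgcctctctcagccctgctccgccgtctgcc
Otc promoter: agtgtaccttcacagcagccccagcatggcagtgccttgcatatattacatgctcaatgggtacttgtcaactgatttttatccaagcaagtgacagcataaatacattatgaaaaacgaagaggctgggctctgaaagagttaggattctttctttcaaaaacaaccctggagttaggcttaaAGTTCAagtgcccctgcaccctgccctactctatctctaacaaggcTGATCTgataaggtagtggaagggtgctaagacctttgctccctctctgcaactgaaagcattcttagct

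The Ass1 start was GC-rich (74.0% GC, 27 CpG dinucleotides), and that of Otc was not (44.3% GC, 1 CpG); the median promoter had 52.7% GC and 7 CpG. In Ass1 the CACGTG match began 36 bases and the GGGCGG match 63 bases before the start. In Otc the AGNTCA matches began 66 and 20 bases before the start that the window is built on. That start lies inside the Otc gene span given above (chrX:10252230-10321024), and so do both matches. Of all 32851 promoters, 7.15% held CACGTG, 35.7% GGGCGG and 46.6% AGNTCA. These 3 motifs were added after the sequences had been seen. The CCAAT box (in 37.4% of promoters), the TATA box as TATAAA (13.6%), the C/EBP letters TTGCNNAA (10.8%) and the cAMP response element TGACGTCA (1.79%) were also searched on both strands and were not in the windows of Ass1 and Otc. A match is a description of letters and not of a bound site.

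The transcripts around the cycle lay on both sides of WT. Of 27 listed partners (carriers, transporters, transaminases and enzymes of glutamine and ammonia), 22 reached a mean of 1 TPM. By the fold rule 1 of 22 was higher, and 0 were lower, beside 1.21% and 0.301% of all genes. The median was 0.01, and 11 of 22 were below 0. The counting interval was wholly below 0 for 3 of 22 and wholly above 0 for 8 of 22, beside 13.4% and 11.7% of all genes. Of the 22 partners, 14 were above 100 TPM, and among all genes at that level the shares were 24.1% and 35%, so the 8 were close to the background. The one past the rule was Rhbg, an ammonia transporter of pericentral cells, at 8.52 TPM in KO against 5.76 TPM in WT (0.49, interval 0.29 to 0.87). In a search of both strands of the annotation, 59.4% of its windows also occur in Gm38392, which has no row in the table.

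Carriers that link mitochondria and cytosol for the cycle differed little. The ornithine carrier Slc25a15 stood at 207.65 TPM in KO against 208.43 TPM in WT, and its interval, -0.03 to 0.05, held 0. Slc25a13, the aspartate carrier citrin, stood at 145.96 TPM in KO against 142.66 TPM in WT. The glutamate carrier Slc25a22 was at 100.8 TPM against 108.02 TPM (-0.10, interval -0.15 to -0.02). Among plasma membrane transporters, Slc7a2, which carries arginine and other cationic amino acids, was the lowest of the list, at 200.32 TPM against 239.43 TPM (-0.26, interval -0.27 to -0.22). The glutamine transporter Slc38a3 stood at 639.08 TPM in KO against 648.59 TPM in WT, and its interval held 0. Aqp9, a channel that passes glycerol and urea, was at 259.78 TPM against 246.05 TPM (0.08, interval 0.05 to 0.13), and the glutamate transporter Slc1a2 at 64.7 TPM against 60.27 TPM (0.10).

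Glul, Oat, Car5a and Agmat, which handle glutamine, ornithine, bicarbonate and agmatine, were listed higher in KO. Glul stood at 566.28 TPM in KO against 507.25 TPM in WT (0.16, interval 0.15 to 0.20). Oat, the ornithine aminotransferase, which is also pericentral, stood at 446.39 TPM and 412.52 TPM (0.11, interval 0.09 to 0.16). Cps1 was 3.32 times Glul in KO and 4.06 times in WT, and Gls2 was 0.287 and 0.360 times Glul. The mitochondrial carbonic anhydrase Car5a, which provides bicarbonate to Cps1, was at 51.91 TPM against 44.42 TPM (0.22, interval 0.10 to 0.38), and Agmat, the agmatinase, at 101.18 TPM against 91.16 TPM (0.15, interval 0.08 to 0.26).

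The transaminases and glutamate dehydrogenase, which move nitrogen toward ammonia and aspartate, were close to WT. Glud1 stood at 672.19 TPM in KO against 675.53 TPM in WT, Got2 at 312.05 TPM and 314.84 TPM, and Gpt at 183.61 TPM and 184.02 TPM, and the 3 intervals held 0. Gpt2 was at 267.35 TPM against 262.67 TPM (0.03). Got1, the cytosolic aspartate aminotransferase, was the exception, at 214.12 TPM against 235.37 TPM (-0.14, interval -0.17 to -0.07). Nit2 (0.04) and the deacylases Sirt3 (-0.05) and Sirt5 (-0.04), the last of which acts on Cps1, had intervals that held 0.

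**Figure D3:**
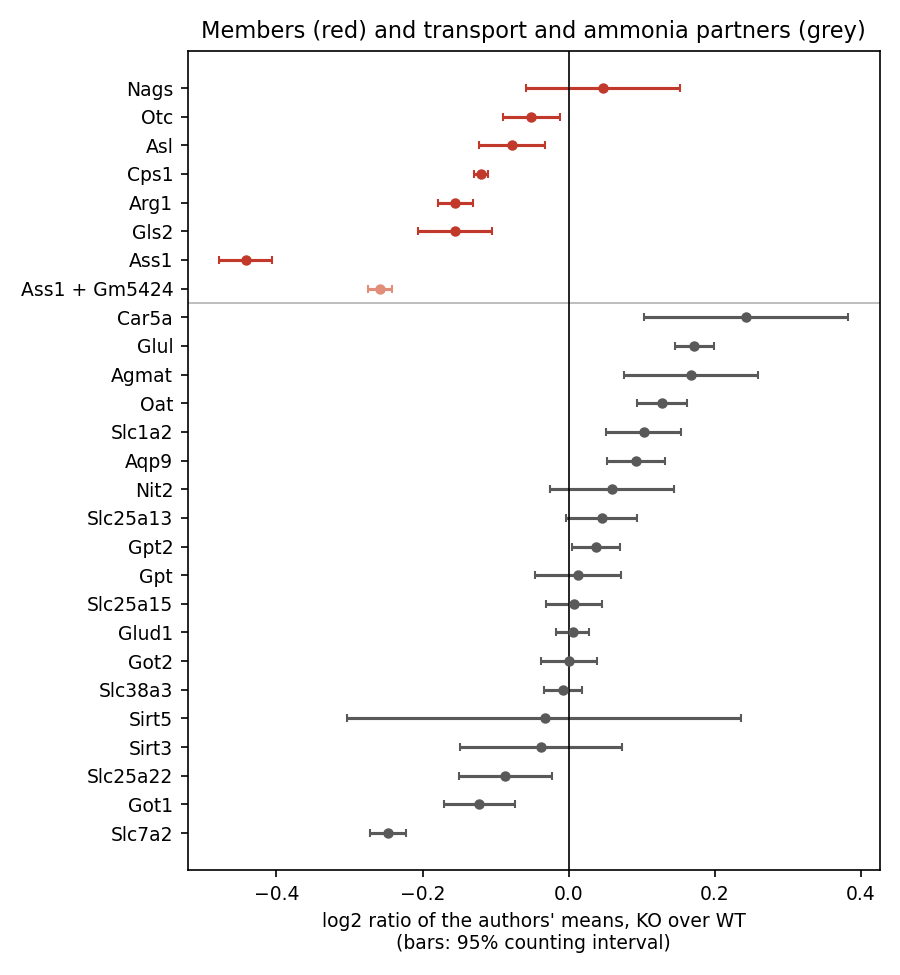
log2 ratio of the authors' means, KO over WT, with 95% counting intervals, for the 7 genes (red), Ass1 summed with its copy (light red) and the partners above 10 TPM (grey). Of the red intervals only that of Nags crosses 0, while the grey ones lie on both sides.

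Enzymes that release ammonia from amino acids and nucleotides lay on both sides of WT. Of 12 that reached 1 TPM, 7 were below 0 and 5 above (53.8% of all genes were below), and the median was -0.06. None of the 12 was past the fold rule, beside 1.21% of all genes upward and 0.301% downward. At the fall limit of 1/1.4, 1 of 12, Sds, was lower, beside 1.02% of all genes. Serine dehydratase (Sds), a periportal enzyme, was the lowest, at 168.08 TPM in KO against 239.35 TPM in WT (-0.51, interval -0.56 to -0.42). The Sds change thus stood beside the -0.47 listed for Ass1. In a search of both strands, 15.8% of the Sds windows also occur in Plbd2, at 23.81 TPM against 21.49 TPM. Which strand they match was not recorded, so whether reads are shared is not known. Sdsl, a relative of Sds, stood at 8.47 TPM against 11.59 TPM (-0.41, interval -0.77 to -0.11). Hal and Ftcd, which degrade histidine, stood at 134.71 TPM against 150.53 TPM (-0.16) and 164.9 TPM against 177.91 TPM (-0.11), and both intervals were below 0. Of the glycine cleavage system, Gldc was at -0.08, Dld at -0.03, Gcsh at 0.04 and Amt at 0.13. Ampd2, an AMP deaminase, was at -0.12 with an interval that held 0. Cth (0.02) and Aspg (0.01) lay near 0 with intervals that held it, and Asrgl1 was the highest of the list at 0.25, from 8.53 TPM and 7.03 TPM.

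Periportal markers lay mostly below WT and pericentral markers above it. Of 14 periportal markers, none of them among the 7 genes, 10 were below 0, beside 53.8% of all genes. Their median was -0.11, and their summed level was 5517 TPM in KO against 6209 TPM in WT, a ratio of 0.889. The lowest was Apoa4 (-0.51) and the highest Ctsc (0.08). None was past the fold rule, beside 1.21% of all genes upward and 0.301% downward. At the fall limit of 1/1.4, 2 were lower, Sds and Apoa4, beside 1.02% of all genes. Of 13 pericentral markers, 0 were below 0, beside the same 53.8% of all genes. The median was 0.16, and the sum was 6972 TPM against 6336 TPM. Of these, 3 were past the fold rule upward, beside 1.21% of all genes. They were Cyp7a1, the rate-limiting enzyme of bile acid synthesis (1.03), the transcription factor Tbx3 (0.78) and Rhbg. That count was 2 with TPM rescaled to equal sums and 1 with a minimum of 10 TPM, both without Rhbg, and 4 with a pseudocount of 0.1 TPM or the authors' means. The lowest was Gulo (0.05). The lists share Sds, Hal and Gldc with the ammonia release list and Glul, Oat, Rhbg and Slc1a2 with the partners, so they are not separate evidence. Both lists were also written with earlier results of these data known. In bulk liver, fewer cells of a type and less RNA per cell cannot be told apart, and the part of either zone in the levels of the 7 genes was not tested.

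Markers of other cell types were also read. The 7 hepatocyte markers had a median of 0.02, from -0.09 for Ttr to 0.09 for Fgb, and a summed ratio of 0.975. All 7 Kupffer cell markers were above 0 (median 0.16, from 0.10 for Vsig4 to 0.19 for Clec4f), with sums of 222 TPM in KO against 197 TPM in WT. All 8 endothelial markers were below 0 (median -0.10, from -0.60 for Lyve1 to -0.01 for Stab1), with sums of 199 TPM and 219 TPM. Of 8 stellate cell markers, 6 were below 0 (median -0.15, from -0.26 for Des to 0.17 for Lrat). Cholangiocyte markers summed to 62.0 TPM and 66.9 TPM (4 of 5 tested, from -0.59 for Epcam to 0.01 for Krt19) and lymphocyte markers to 6.39 TPM and 7.01 TPM (1 of 5 tested, Ptprc at -0.00). Of the 3 red cell genes, Hbb-bs was past the rule at -0.89 (0.301% of all genes were lower by it) and Hba-a1 was the highest at 0.19. At the fall limit of 1/1.4, Lyve1 and Epcam were also past the rule, beside 1.02% of all genes. The counting interval held 0 for 3 of 7 Kupffer, 6 of 8 endothelial, 4 of 8 stellate and 3 of 4 cholangiocyte markers. It was wholly above 0 for 4 of 7 Kupffer and 1 of 8 stellate markers, beside 11.7% of all genes. It was wholly below 0 for 2 of 8 endothelial, 3 of 8 stellate and 1 of 4 cholangiocyte markers, beside 13.4%. Of all genes, 53.8% had a change below 0. The part of these cells in the levels of the 7 genes was not tested.

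**Figure D4:**
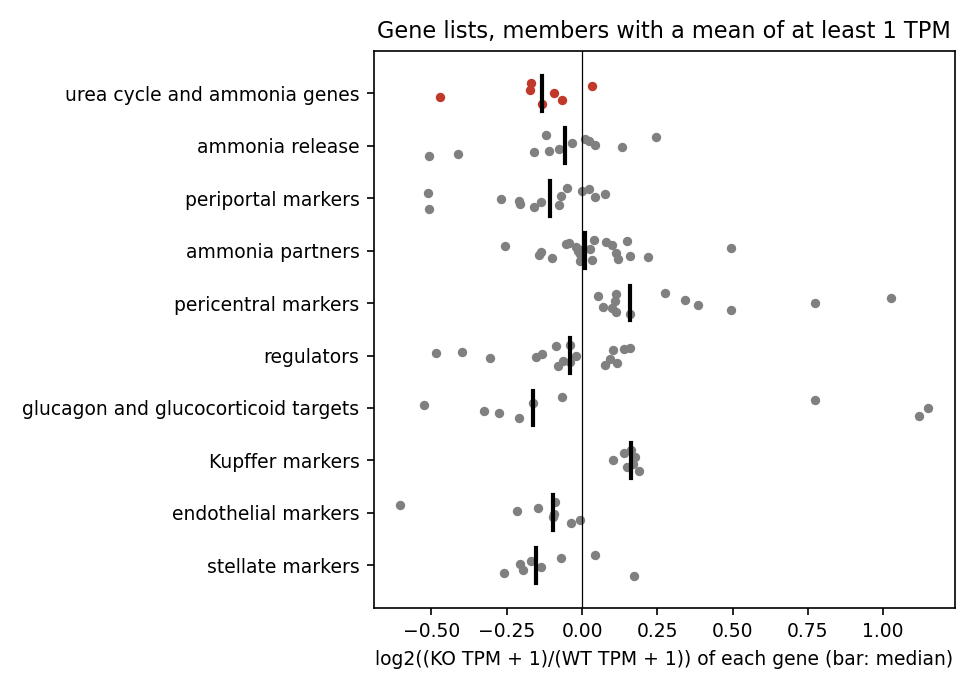
Change (log2 of TPM + 1, KO over WT) of every gene that reached 1 TPM in 10 gene lists, with a bar at each median; the lists share some genes. The urea cycle and ammonia genes are red (median -0.13). Nearest to them by median were the stellate (-0.15), periportal (-0.11), glucagon and glucocorticoid (-0.16) and endothelial (-0.10) lists. The pericentral and Kupffer medians (both 0.16) were the highest.

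Regulators of these genes in liver, which were transcription factors, coactivators and the glucagon receptor Gcgr, lay on both sides of WT. Of 17, none was past the fold rule, beside 1.21% of all genes upward and 0.301% downward. Of the 17, 11 were below 0 (beside 53.8% of all genes), and the median was -0.04. The lowest was Foxa2, a forkhead factor of hepatocytes, at 14.7 TPM in KO against 20.96 TPM in WT (-0.48, interval -0.67 to -0.31), and the highest was Nfya, a CCAAT-binding factor (0.16, interval -0.07 to 0.49).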

How the data were processed

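The authors sequenced 1 pooled, stranded total RNA library per genotype. The submitters' processing notes name CASAVA 1.8.2, Bowtie, RSEM 1.2.09 and mm10. The authors deposited TPM per gene. From EBSeq they also deposited the signal of each library (the authors' mean, estimated reads divided by a size factor). The remaining columns the authors deposited hold EBSeq's posterior probabilities and fold ratios of their own comparison, and were not used. The members and gene lists (15 lists, from general knowledge) were chosen with earlier results of these data known.

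Depth cannot be read from TPM. In the authors' means 1 read was worth 1.162171 in KO and 0.860459 in WT, and 78.4% and 75.0% of values were whole reads within 0.02. No count test was run. Counting intervals are Clopper-Pearson, at 95%. The fold rule, computed with a pseudocount of 1 TPM on genes whose mean reached 1 TPM, had limits of 1.4 upward and 0.6 downward. Named genes were the 7 members, Pgrmc1, genes of each list past the fold rule with its highest and lowest, and partners and release enzymes of at least 10 TPM. Spryd4, Gm11586, Gm38392, Plbd2, Gm5424, albumin, Pck1, Tat, Tdo2, Per1 and Tsc22d3, as well as comparisons of Glul, were added after their values were seen. The symbols Ca5a, Tf and Adgre1 were matched as Car5a, Trf and Emr1. Positions are from RefSeq and windows from GENCODE transcripts, both on GRCm38. The fold rule and intervals were also run on simulated Poisson counts. Those hold no spread between mice and no sharing of reads between genes, so they cannot check the intervals for either. Alternatives were another pseudocount, filter, scaling and fold, the authors' means, and Ass1 summed with Gm5424. Scripts ran in Python 3.11.15 (pandas 2.3.3, numpy 2.4.6, matplotlib 3.10.9, scipy 1.17.1).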

Additional observations from a re-analysis of the deposited data

How the results depend on the processing

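With 1 pooled library per genotype, neither the spread between mice nor the effect of leaving out a sample can be given. No paired analysis was possible because there was a single pooled library for KO and for WT. With the fold limits eased to 1.2 in either direction, 1 of 7 members (Ass1) was lower, where 5.51% of genes were, and the count was again 1 with Ass1 summed with Gm5424. That sum and the rescaling of TPM to equal sums were chosen after the data were seen. Of 43 recomputed member changes, 39 moved by no more than the half-width of the gene's own counting interval, 4 by more, and 0 changed sign. That half-width is narrowest for Cps1, so a smaller move counts there than for Ass1. The 4 were Ass1 at -0.27 when summed with Gm5424 and Cps1 at -0.12 with the authors' means, -0.12 when centred on the median gene and -0.15 when rescaled. The log2 ratio of the summed member levels ran from -0.20 without Cps1 to -0.14 without Ass1. Rhbg was no longer past the rule when TPM were rescaled to equal sums, with a fold limit of 2 or with a minimum of 10 TPM. The largest move of a member under another scaling was 0.028, and the all-gene median ran from -0.03 to 0.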

Other observations

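Transcripts that respond to glucagon or glucocorticoids, hormones that also raise urea cycle transcripts, lay on both sides of WT. Of 9, 3 were past the fold rule upward and 0 downward, beside 1.21% and 0.301% of all genes. The median was -0.16, and 6 were below 0, beside 53.8% of all genes. These were Pck1 (-0.21), Tat (-0.28), Tdo2 (-0.32), Per1 (-0.16), Tsc22d3 (-0.07) and Fkbp5. The counting interval was wholly below 0 for these 6 and wholly above 0 for the other 3. Over all genes, the shares were 13.4% and 11.7%. Of the 9, 6 were above 100 TPM, and among all genes at that level the shares were 24.1% and 35%. At the fall limit of 1/1.4, 1 of 9, Fkbp5, was lower, beside 1.02% of all genes. G6pc, the glucose-6-phosphatase of gluconeogenesis, stood at 445.52 TPM in KO against 204.76 TPM in WT (1.12, counting interval 1.10 to 1.18). Igfbp1, a secreted IGF-binding protein, stood at 294.54 TPM and 132.17 TPM (1.15), and the kinase Sgk1 at 29.63 TPM and 16.91 TPM (0.77). The lowest was Fkbp5, a co-chaperone of the glucocorticoid receptor, at 34.86 TPM and 50.62 TPM (-0.53, interval -0.61 to -0.44).

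Genes of arginine, ornithine and proline metabolism outside the cycle, among them the antizyme Oaz1 and the antizyme inhibitor Azin1, which are not enzymes, had a median near 0. Of 10, none was past the fold rule, beside 1.21% of all genes upward and 0.301% downward. Of the 10, 4 were below 0, beside 53.8% of all genes, and the median was 0.02. They ran from -0.21 for Nos3, the endothelial nitric oxide synthase (1.65 TPM and 2.06 TPM, an interval that held 0), to 0.19 for Prmt1, the main protein arginine methyltransferase (8.58 TPM and 7.42 TPM, an interval that held 0).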
